A study of Arabidopsis thaliana with 6 samples.

Results

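The LHCB1 genes of Arabidopsis thaliana encode the most abundant protein of the major light-harvesting antenna. They are CAB3 (AT1G29910), CAB2 (AT1G29920), CAB1 (AT1G29930), LHB1B2 (AT2G34420) and LHB1B1 (AT2G34430), taken by gene ID as 5 of the 33331 genes of the table. They were chosen by their TPM values in these libraries, that is, with their levels at both time points already known, so levels and differences are given as a description, without a test. RNA immunoprecipitation followed by sequencing (RIP-seq) measured the RNA recovered with AtGRP7, an RNA-binding protein under control of the circadian clock. The 6 libraries came from aerial tissue of plants that carried AtGRP7::AtGRP7-GFP in grp7-1. In every library the protein was therefore a GFP fusion driven by the AtGRP7 promoter in a loss-of-function mutant background. Plants grew for 16 days in cycles of 12 h light and 12 h dark, moved to continuous light, and were fixed with 1% formaldehyde for 15 min. Fixation took place after 24 h (LL24, n = 3) or 36 h (LL36, n = 3) of continuous light, and the labels call the replicates biological.

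The antenna of photosystem II gathers light with chlorophyll a/b-binding proteins that are encoded in the nucleus, made in the cytosol and inserted into the thylakoid membrane of the chloroplast. Its major complex, LHCII, is a trimer of LHCB1, LHCB2 and LHCB3 proteins, of which LHCB1 is the most abundant. LHCII can move between the photosystems after phosphorylation, and it takes part in stacking thylakoids and in dissipating excess light. Transcripts of LHCB genes are classic outputs of the circadian clock in leaves, with a peak in the subjective day, and the promoter of CAB2 has long served as a reporter of the clock. LL24 falls at subjective dawn and LL36 at subjective dusk.

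The deposited unit was TPM, a transcript abundance relative to all quantified transcripts, which corrects for transcript length and so allows levels of different genes to be compared. Unless stated otherwise, a level is a scaled TPM, that is, the deposited TPM divided by a trimmed-mean factor of its library. Shares and ratios within a library need no such factor. The listed genes summed to a TPM between 95948 and 165739 per library, with scaling factors between 0.615 and 1.26. Across the 789 genes whose mean TPM reached 5, libraries of the same time point had a Spearman correlation between 0.948 and 0.972. For libraries of different time points it was between 0.721 and 0.772. The leaf markers RBCS1A, RCA and CA1 (carbon fixation) had mean levels of 1708, 133 and 58.7 at LL24 and 1174, 39.4 and 23.2 at LL36, whereas of the root markers NRT2.1, COBL9 and EXPA7 were at 0 in every library, IRT1 averaged 0.0019 and PYK10 lay at 1.54 and 1.06. All 3 leaf markers were called lower at LL36 by limma (adjusted p under 0.05), as were 24.1% of the same 789 genes. The call of RBCS1A was lost with no limit on TPM (limma adjusted p = 0.17) and without LL36 replicate 1. The part of these markers in the differences of the LHCB1 genes was not tested. No read counts were used, so the depth is unknown and the precision rests on the spread of 3 libraries. Less RNA per cell and fewer cells of a type cannot be told apart in such bulk samples. No input RNA was used here, so the amount of a transcript and its binding by AtGRP7-GFP cannot be told apart either.

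The 5 genes lie in clusters on 2 chromosomes. In TAIR10.1, CAB3 (chr1:10472280-10473502) and CAB2 (chr1:10474656-10475969) follow each other on the minus strand with 1153 bases between them. CAB1 (chr1:10477885-10479114) lies on the plus strand, head to head with CAB2 across 1915 bases. LHB1B2 (chr2:14522524-14523568, minus strand) and LHB1B1 (chr2:14524607-14525918, plus strand) form a second head-to-head pair, with 1038 bases between them. Each gene has 1 annotated transcript of 1 exon, between 1045 nt (LHB1B2) and 1314 nt (CAB2) long. Their coding regions are 798 to 804 nt long, whereas the annotated 5′ UTR ranges from 55 nt (LHB1B2) to 256 nt (CAB3) and the 3′ UTR from 163 nt (CAB3) to 433 nt (CAB2).

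The copies encode nearly the same protein. The translated coding regions of CAB2 and CAB3 were identical, and CAB1 differed from both at 1 residue. LHB1B2 was 97.0% to 97.38% identical to the 3 CAB proteins and LHB1B1 95.13% to 95.51%. The coding regions themselves differed more. CAB1, CAB2 and CAB3 shared 95.65% to 96.39% of their coding bases with each other and 86.83% to 90.42% with the LHB1B genes. A 60-nt coding window is shown because its differences allow reads of the copies to be distinguished. Among ungapped windows of that length it was picked for the most variable positions, so it is not typical of the coding region. It lies at chr1:10478278-10478337 on the plus strand in CAB1, chr1:10472980-10473039 on the minus strand in CAB3, chr1:10475626-10475685 on the minus strand in CAB2, chr2:14523253-14523312 on the minus strand in LHB1B2 and chr2:14525022-14525081 on the plus strand in LHB1B1. The sequences run 5′ to 3′ along each gene, with bases that differ from CAB1 in capitals.
CAB1: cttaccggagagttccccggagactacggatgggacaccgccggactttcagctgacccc
CAB3: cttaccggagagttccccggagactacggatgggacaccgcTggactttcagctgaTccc
CAB2: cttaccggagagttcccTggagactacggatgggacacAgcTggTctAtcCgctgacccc
LHB1B2: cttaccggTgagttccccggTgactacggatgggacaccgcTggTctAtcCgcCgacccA
LHB1B1: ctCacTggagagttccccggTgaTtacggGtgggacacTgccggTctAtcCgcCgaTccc
Among the 5 copies, 15 of the 60 positions varied. CAB3 differed from CAB1 at 2 of them, CAB2 at 6, LHB1B2 at 8 and LHB1B1 at 11.

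Outside the coding region, the 3′ UTRs of any 2 copies were 33.03% to 49.43% identical, with gaps counted as differences. The 3′ UTRs are 163 to 433 nt long, and unequal lengths by themselves lower this value. Reads were 100 nt long, and 95.56% (CAB2) to 98.49% (CAB3) of all 100-nt stretches of a transcript occurred in no other annotated transcript in sense. The stretches that did recur were shared within a cluster, between CAB2 and CAB3, CAB2 and CAB1, and LHB1B2 and LHB1B1. With 50-nt stretches, the minimum length of a trimmed read, the unique share was 79.53% for CAB2, the lowest of the 5. Levels of neighbouring copies are therefore uncertain to the extent that shared reads were divided between them. On the opposite strand, CAB1 overlaps NRPA2 by 108 bases, LHB1B2 overlaps RWA3 by 99 bases, and the long non-coding RNA AT2G08665 covers all 1045 bases of LHB1B2. NRPA2 and RWA3 are among the genes of the table, whereas AT2G08665 is not and so has no level of its own. No source read here says if strand was used in the quantification, so reads of overlapping genes on opposite strands may not have been separated.

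The upstream regions of the head-to-head pairs are printed because the divergent neighbours differed in their levels, described next. Each is the 150 bases before the annotated transcript start, 5′ to 3′ along the gene, at chr1:10475970-10476119 on the minus strand for CAB2, chr1:10477735-10477884 on the plus strand for CAB1, chr2:14523569-14523718 on the minus strand for LHB1B2 and chr2:14524457-14524606 on the plus strand for LHB1B1. Capitals mark the motifs found in a search of both strands.
CAB2: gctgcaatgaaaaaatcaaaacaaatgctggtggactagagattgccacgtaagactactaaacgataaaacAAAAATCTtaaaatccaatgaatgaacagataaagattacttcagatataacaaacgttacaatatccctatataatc
CAB1: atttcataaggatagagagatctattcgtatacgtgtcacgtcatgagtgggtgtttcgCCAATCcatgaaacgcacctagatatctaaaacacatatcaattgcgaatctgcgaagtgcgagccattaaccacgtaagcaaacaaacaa
LHB1B2: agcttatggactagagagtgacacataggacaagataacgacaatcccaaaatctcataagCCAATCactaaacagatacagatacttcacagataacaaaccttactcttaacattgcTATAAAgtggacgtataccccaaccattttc
LHB1B1: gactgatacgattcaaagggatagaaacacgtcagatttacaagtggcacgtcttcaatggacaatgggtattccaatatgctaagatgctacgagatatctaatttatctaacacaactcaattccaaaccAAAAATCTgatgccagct
Over the 250 bases before the start, the 5 upstream regions were 43.93% to 55.43% identical in pairs. AAAAATCT, a sequence known to be bound by the clock protein CCA1, stood 78 to 71 bases before the start of CAB2 and 18 to 11 bases before that of LHB1B1. It occurred in 6.69% of 27443 windows of that length before annotated genes. CCAATC, a motif associated with the GLK transcription factors, stood 91 to 86 bases before CAB1 and 89 to 84 bases before LHB1B2, and in 10.23% of all windows. TATAAA, the TATA box, was found 31 to 26 bases before LHB1B2 and in 47.35% of windows. None of the 5 windows held the evening element AAAATATCT (2.36% of windows), the G-box CACGTG (6.49%) or the I-box GATAAG (12.29%), and that of CAB3 held none of the motifs searched. In a window of 500 bases before the start codon, chosen after seeing the data, AAAAATCT was found for CAB2, CAB1 and LHB1B1. It occurred there in 13.19% of 27443 protein-coding genes. This window includes the annotated 5′ UTR, which held the AAAAATCT and GATAAG of CAB1. The 5′ UTR of LHB1B1 likewise held its GATAAG, its TATAAA and a further AAAAATCT. GATAAG was found in the window for CAB1, LHB1B2 and LHB1B1 (23.53% of these protein-coding genes), TATAAA for CAB2, LHB1B2 and LHB1B1 (64.31%) and CCAATC for CAB1 and LHB1B2 (21.19%). AAAATATCT (4.02%) and CACGTG (9.34%) were found for none.

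CAB1 gave most of the LHCB1 RNA at both time points, and CAB2 carried most of the difference between them. The level of CAB2 was 5.25 times higher at LL24 than at LL36, while that of CAB1 was nearly equal. LHB1B2 was 1.75 times higher at LL24, CAB3 1.24 times and LHB1B1 1.05 times.

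CAB2 had levels of 466, 584 and 530 in LL24 replicates 1 to 3 and of 81.5, 118 and 101 in LL36 replicates 1 to 3. The groups were far apart, at means of 526 ± 59.0 and 100.3 ± 18.4 (SD, n = 3 each), a log2 difference of LL36 minus LL24 of -2.39 (SE 0.16). Among all genes, CAB2 ranked 9 to 10 by TPM at LL24 and 25 to 44 at LL36.

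LHB1B2 had levels of 534, 720 and 626 at LL24 and of 361, 335 and 380 at LL36. Its groups did not overlap, with means of 627 ± 92.8 and 359 ± 22.9 (SD, n = 3 each) and a log2 difference of -0.80 (SE 0.14). CAB3, whose coding region gives the same protein as CAB2, had levels of 282, 337 and 312 at LL24 and of 239, 244 and 265 at LL36. The groups came close without overlapping, with means of 310.4 ± 27.4 and 249 ± 13.4 (SD, n = 3 each), and the log2 difference was -0.31 (SE 0.11).

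CAB1 had levels of 1624, 2037 and 1964 at LL24 and of 1846, 1925 and 1837 at LL36. All 3 LL36 libraries fell inside the range of LL24. Its means were 1875 ± 220 and 1869 ± 48.4 (SD, n = 3 each), with a log2 difference of 0.0022 (SE 0.14), and it ranked 5 to 6 among all genes at LL24 and 5 at LL36. LHB1B1, the least abundant copy at LL24, had levels of 142, 178 and 196 at LL24 and of 154, 173 and 163 at LL36. Its LL36 values too lay inside the LL24 range, and the log2 difference was -0.06 (SE 0.13).

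**Figure D1:**
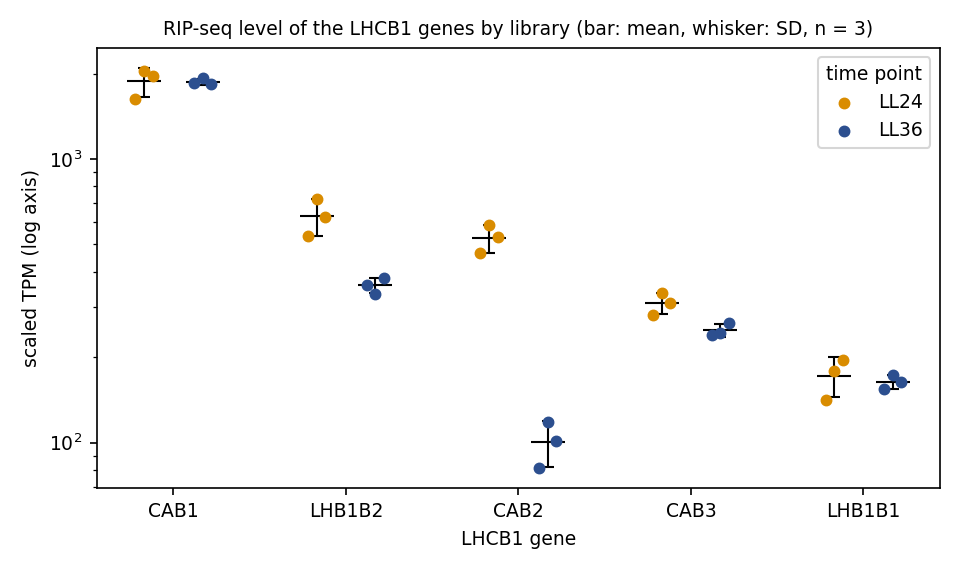
Level of each LHCB1 gene in scaled TPM, on a log axis, with 1 point per library at LL24 (orange) and LL36 (blue). Black bars are means and whiskers SD (n = 3), and the time points are widely separated for CAB2 (526 against 100.3) and overlap for CAB1 and LHB1B1.

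The 3 LL36 libraries all lay below the 3 LL24 libraries for CAB2, LHB1B2 and CAB3. The same was true of 29.3% of the 789 genes whose mean TPM reached 5, and for 57.2% of them the time points did not overlap in either direction. All 5 LHCB1 genes exceeded that limit in every library. As these genes were chosen with their values known, nothing is read from the counts. The median log2 difference was -0.31 over the 5 genes and 0.02 over the 789 genes, of which 5% had a value of -1.18 or lower. Without the scaling, the log2 difference was -0.30 for CAB1, -0.36 for LHB1B1 and -0.61 for CAB3, and the median of all tested genes was -0.26. The groups of CAB3 overlapped when libraries were rescaled without the 10 most abundant genes and on a scale that sums to 1000000. They also overlapped with a mean TPM limit of 1 and with no limit. Those of CAB2 and LHB1B2 stayed apart in every alternative. Those of CAB1 and LHB1B1 overlapped in every alternative except without LL24 replicate 1. There they were apart, with log2 differences of -0.11 and -0.21.

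Summed over the 5 copies, LHCB1 levels were 3048, 3856 and 3627 at LL24 and 2682, 2795 and 2746 at LL36. The sums did not overlap, at 3511 ± 417 and 2741 ± 56.9 (SD, n = 3 each), a ratio of LL36 to LL24 of 0.781. As a share of all listed TPM, the 5 genes made up 2.64%, 2.62% and 2.77% at LL24 and 2.23%, 2.18% and 1.76% at LL36. The most abundant gene model, AT2G01021, held most of the listed TPM, and without it the mean shares were 7.97% ± 0.470 and 6.26% ± 1.27 (SD, n = 3 each), with LL36 replicate 3 lowest at 4.82%.

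The makeup of LHCB1 RNA differed between the time points. CAB1 made up 53.3%, 52.8% and 54.1% of the LHCB1 sum at LL24 and 68.8%, 68.9% and 66.9% at LL36. Its share was thus 14.8 percentage points higher at LL36 while its level was nearly equal. CAB2 made up 15.3%, 15.1% and 14.6% at LL24 and 3.04%, 4.23% and 3.68% at LL36, a difference of -11.4 points.

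LHB1B2 held 17.5%, 18.7% and 17.3% at LL24 and 13.4%, 12.0% and 13.9% at LL36, and LHB1B1 4.65%, 4.63% and 5.40% at LL24 and 5.75%, 6.19% and 5.94% at LL36. Neither pair of groups overlapped. CAB3 held 9.26%, 8.74% and 8.60% at LL24 and 8.92%, 8.74% and 9.64% at LL36, with groups that overlapped.

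**Figure D2:**
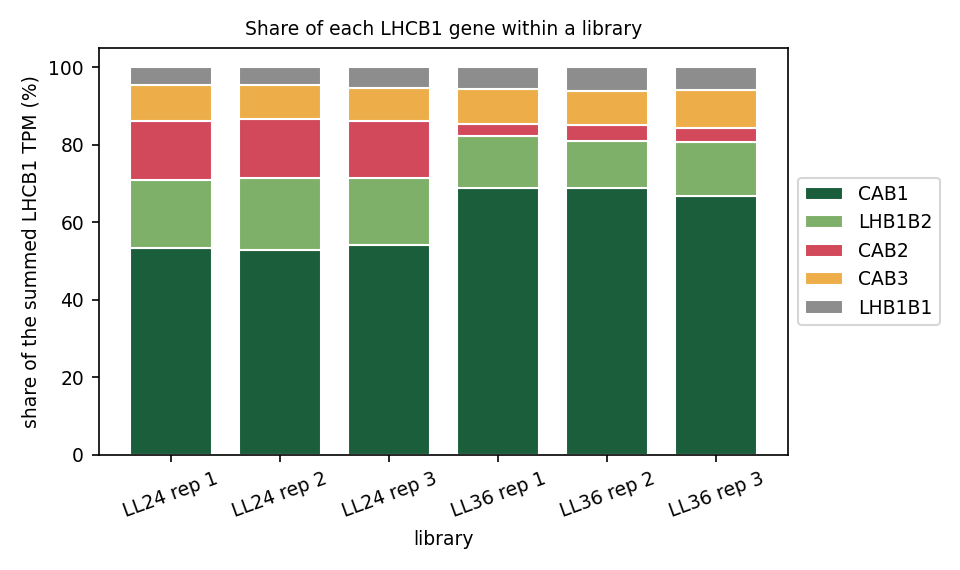
Share of each gene in the summed LHCB1 TPM of a library, in percent, with 1 stacked bar per library. The CAB2 segment covers 14.6% to 15.3% in the LL24 libraries and 3.04% to 4.23% in the LL36 libraries, and the CAB1 segment is larger in every LL36 library.

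At LL24 the copies of a library deviated together in their scaled levels. The coefficient of variation over replicates was 8.82% to 16.1% for the levels and 1.25% to 8.98% for the shares, and replicate 1 was lowest for all 5 genes. At LL36 the scaled levels of the copies did not deviate together. The coefficient of variation there was 2.59% to 18.4% for the levels and 1.66% to 16.4% for the shares, highest for CAB2 in both. Both patterns depend on the scaling. In deposited TPM, replicate 3 was the highest at LL24 and the lowest at LL36 for every copy. CAB1, for example, had a deposited TPM of 1913, 2209 and 1129 in LL36 replicates 1 to 3.

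The order of levels at LL24 was CAB1, LHB1B2, CAB2, CAB3 and LHB1B1. CAB1 was 3.0 ± 0.157 times the level of LHB1B2 (SD, n = 3). LHB1B2 and CAB2 overlapped in their levels across libraries, although LHB1B2 was higher in 3 of 3, by 1.19 ± 0.0437 times. At LL36 the order was CAB1, LHB1B2, CAB3, LHB1B1 and CAB2, with no overlap between neighbours. There CAB1 was 5.23 ± 0.471 times the level of LHB1B2, and LHB1B1 was 1.66 ± 0.218 times that of CAB2.

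Of the 10 ratios between copies, 8 did not overlap between LL24 and LL36. Over all pairs of tested genes above 0 in every library, 57.9% did not overlap. The log2 ratio of CAB2 to CAB1, the divergent neighbours, was -1.80, -1.80 and -1.89 at LL24 and -4.50, -4.02 and -4.18 at LL36. CAB2 thus stood at 0.281 ± 0.00968 of CAB1 at LL24 and at 0.0536 ± 0.00876 at LL36 (SD, n = 3 each). CAB3 to CAB2, the tandem neighbours with the same protein, was at -0.72, -0.79 and -0.77 at LL24 and at 1.55, 1.05 and 1.39 at LL36. The ratio turned over, with CAB2 the higher copy in every LL24 library and CAB3 the higher in every LL36 library.

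In the second cluster, the log2 ratio of LHB1B2 to LHB1B1 was 1.92, 2.01 and 1.68 at LL24 and 1.23, 0.95 and 1.22 at LL36, so that LHB1B2 remained the higher copy. The exceptions without separation were CAB1 to LHB1B1, at means of 3.45 and 3.52, and CAB3 to LHB1B1, at 0.86 and 0.61. With all 6 libraries, both head-to-head pairs held 1 gene whose groups did not overlap and were lower at LL36, CAB2 or LHB1B2. The groups of the other gene, CAB1 or LHB1B1, overlapped. That overlap rested on LL24 replicate 1, without which CAB1 and LHB1B1 too were lower in every LL36 library, by less than their neighbours. In each pair the gene with the larger difference was on the minus strand.

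**Figure D3:**
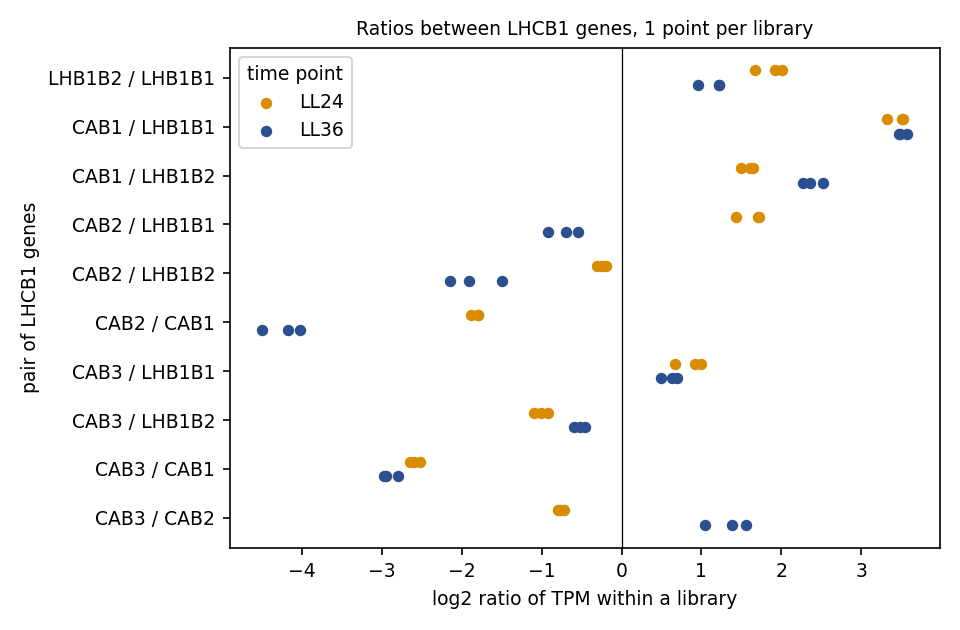
Log2 ratio of TPM within a library for the 10 pairs of LHCB1 genes, with 1 point per library at LL24 (orange) and LL36 (blue). The ratios of CAB2 to each other copy move by the largest amounts, and the points overlap only for CAB1 / LHB1B1 and CAB3 / LHB1B1.

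The other genes of the LHCII trimer were all lower at LL36. In the limma fit of the 789 genes past the limit, 24.1% were called lower (adjusted p under 0.05) and 44.0% were called in either direction. LHCB2.1, LHCB2.2 and LHCB2.3, which encode the trimer protein most readily phosphorylated in state transitions, passed the limit only through their LL24 values, so they were tested in a fit of all 22084 genes above 0, of which limma called 9.29%. LHCB2.1 fell from 29.7 ± 1.22 to 2.98 ± 0.0877 (SD, n = 3 each), with a log2 difference of -2.83 and a limma adjusted p of 0.00014 in that fit. LHCB2.2 and LHCB2.3 fell too, with log2 differences of -2.61 and -3.14 (limma adjusted p = 0.00028 and 0.00012). LHCB3, a component of trimers bound to photosystem II, was tested with the limit. LHCB3 fell from 272 ± 27.8 to 105 ± 10.2, with a log2 difference of -1.36 (SE 0.12, limma adjusted p = 7.1e-05). Sharing of sequence among the LHCB2 copies was not checked. LHCB1 accordingly made up 89.7%, 91.2% and 92.1% of the TPM of the 9 trimer genes at LL24 and 96.1%, 96.4% and 95.7% at LL36, without overlap.

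The minor antenna proteins link LHCII to the photosystem II core. Of their 6 genes 4 were tested, and LHCB4.2, LHCB5 and LHCB6 fell at LL36, with log2 differences of -1.22, -0.47 and -0.67. LHCB4.1, which encodes a close relative of the LHCB4.2 protein, was at 106 ± 12.8 and 110 ± 0.877 (SD, n = 3 each), with a log2 difference of 0.06 (limma adjusted p = 0.69). The call of LHCB5 was lost without the scaling (limma adjusted p = 0.0995), and those of LHCB5 and LHCB6 when no limit was set on TPM (limma adjusted p = 0.23 and 0.11). In the antenna of photosystem I, 4 of 6 genes were tested. LHCA4 fell from 335 ± 41.8 to 137 ± 11.7 (log2 difference -1.28, SE 0.12, limma adjusted p = 0.00012), and LHCA3 was called higher, at 105 ± 7.63 and 129 ± 9.21 (log2 difference 0.30, SE 0.10, limma adjusted p = 0.043). The call of LHCA3 held in 8 of 16 alternatives, and without the scaling its log2 difference was -0.0033. LHCA1 and LHCA2 had log2 differences of -0.23 and -0.09 and were not called.

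**Figure D4:**
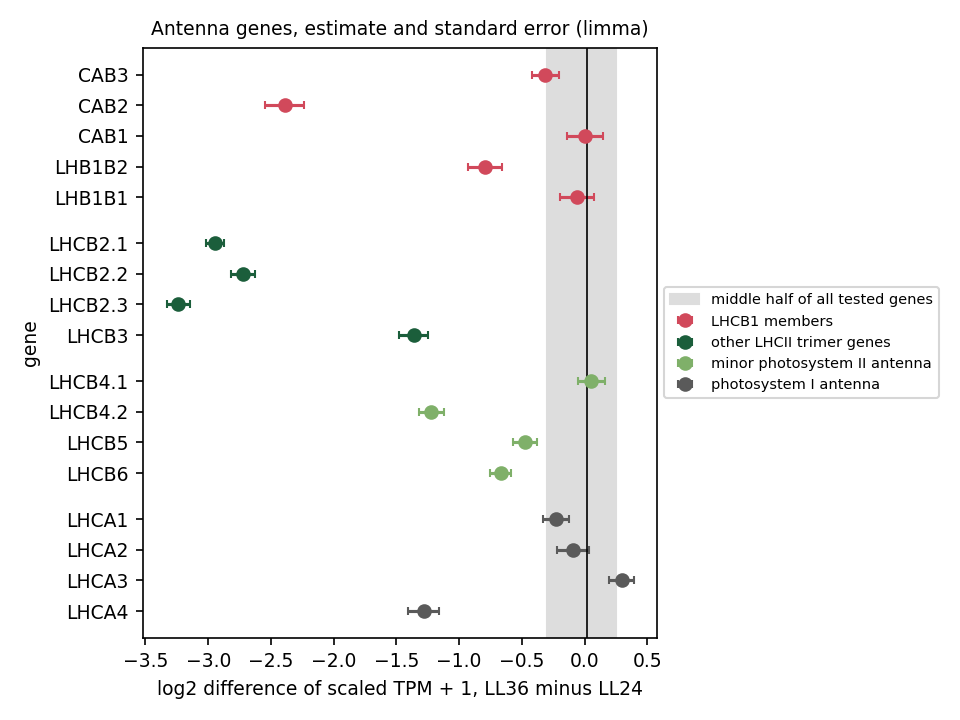
Log2 difference of scaled TPM + 1, LL36 minus LL24, for the 5 LHCB1 genes and 12 other antenna genes, with standard errors from limma. The grey band spans the lower to the upper quartile of all tested genes (-0.30 to 0.25) and the black line is their median. CAB2, the LHCB2 genes, LHCB3, LHCB4.2 and LHCA4 lie far to the left. LHCB2.1, LHCB2.2 and LHCB2.3 passed the limit only through their LL24 values. They are drawn from the fit with the limit, at -2.95, -2.72 and -3.24.

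Of 10 genes for import, membrane insertion, phosphorylation and pigment supply of LHC proteins, 3 passed the limit. PSBS, a protein of energy dissipation in the antenna, fell from 49.3 ± 4.88 to 31.0 ± 3.51 (SD, n = 3 each), with a log2 difference of -0.65 and a limma adjusted p of 0.0029, which was 0.14 with no limit on TPM. LTD, which guides LHC proteins inside the chloroplast, was called higher, with a log2 difference of 0.27 and a limma adjusted p of 0.027, and kept its call in 9 of 16 alternatives. ALB3, the insertase of the thylakoid membrane, was at -0.07 and was not called. In the fit without a limit, 2 of the 10 were called higher, NYC1 and CPSRP54 (limma adjusted p = 0.00089 and 0.041). Another 2 were called lower, CAO and STN7 (limma adjusted p = 0.00029 and 0.019), beside 9.29% of all genes. Their mean TPM was low, from 0.53 (STN7) to 1.18 (CPSRP54). Together with the other antenna lists, 11 of 15 genes past the limit were called, 9 of them lower. Of all 789 genes, 347 (44.0%) were called, 190 of them lower. Without the 3 LHCB2 genes, whose LL36 means were under the limit, 8 of 12 were called, 6 of them lower. Of the 675 genes whose means at both time points were at the limit or above, 270 (40.0%) were called, 133 of them lower.

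Known regulators of LHCB genes all had low levels, and none of 5 passed the limit. In the fit without a limit CCA1, a morning transcription factor of the clock that binds LHCB1 promoters, fell from levels of 1.43, 1.13 and 1.03 to 0.0248, 0.0159 and 0.0606 (adjusted p = 0.00027). LHY, its close relative, fell from 1.87, 1.23 and 1.17 to 0.0173, 0.0262 and 0.0186 (adjusted p = 0.00051). GLK2, an activator of antenna genes, fell from 1.35 ± 0.189 to 0.409 ± 0.0253 (SD, n = 3 each, limma adjusted p = 0.0051). GLK1, its relative, was at 1.30 ± 0.0859 and 1.32 ± 0.0786, and HY5, a factor of light signalling, at 0.398 ± 0.121 and 0.165 ± 0.0224. Neither was called.

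The genes most like each copy were ranked by Pearson correlation of log2(scaled TPM + 1) over the 6 libraries, which also reflects the shared difference between time points. For CAB2 they were AT2G41410 (r = 0.999), TAS3, a precursor of trans-acting small RNAs (0.998), and GLDP1, a subunit of glycine decarboxylase in photorespiration (0.998). For LHB1B2 they were AT2G44670 (0.976), the ferredoxin gene FD1 (0.972) and the antenna gene LHCB6 (0.969). CAB3 was closest to AT1G77940 (0.977), STR16 (0.976) and FD1 (0.953). CAB1 was closest to AT3G63052 (0.963), TOM5 (0.944) and SMAP1 (0.926), and LHB1B1 to the metallothionein gene MT3 (0.917), AT2G37600 (0.910) and AT1G08110 (0.864). FD1 thus stood in the lists of both LHB1B2 and CAB3, and no other gene recurred.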

How the data were processed

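RIP-seq libraries of AtGRP7-GFP from 3 LL24 and 3 LL36 samples, prepared with no poly(A) selection (single-end, 100 nt), were grouped by sample title. The authors deposited TPM per gene. Per the labels and methods, reads were aligned with STAR 2.5.2a, quantified per transcript with Salmon 0.8.2 and summed per gene, and rRNA and organelle genes were left out. Salmon divides reads shared by similar copies by estimation, so levels of near-identical genes depend on that model. The labels give the build TAIR10. The table holds no coordinates, and gene models and sequences came from RefSeq TAIR10.1, which matched 32811 of 33331 gene IDs. The table has 6 further columns whose names fit none of the samples, and these were left out. The paper judged enrichment in RIP-seq against poly(A) RNA of wild-type plants, a comparison that was not made here.

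Each library was divided by an unweighted trimmed mean of log ratios (30% of ratios and 5% of abundances trimmed at each end) over genes whose mean TPM reached 5. In R 4.3.3, limma 3.58.1 (eBayes with a trend) was run on log2(scaled TPM + 1), two-sided, with Benjamini-Hochberg adjustment over all 789 genes at 0.05. The pseudocount of 1 understates differences of low genes. The fit was tested on simulated data. Levels, shares and ratios of the LHCB1 genes carry no test. The LHCB1 genes, the lists and the motifs were chosen with earlier results of these data known, and lists were named by fixed membership, the most similar genes by correlation. Promoter windows and translated coding regions were cut from the genome with the RefSeq annotation. Alternatives changed the scaling, the limit, the pseudocount, the variance trend, the pairing of replicates or the libraries used.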

Additional observations from a re-analysis of the deposited data

How the results depend on the processing

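Without the scaling, the log2 differences of LL36 minus LL24 were -2.69 for CAB2, -1.10 for LHB1B2, -0.61 for CAB3, -0.36 for LHB1B1 and -0.30 for CAB1. With no limit on TPM they were -2.26, -0.67, -0.18, 0.07 and 0.13 in the same order. The scaling factors of that fit were computed over all genes above 0. Every copy had a higher value in it than in the fit with the limit. Leaving out 1 library at a time gave -2.50 to -2.23 for CAB2, -0.92 to -0.70 for LHB1B2, -0.39 to -0.26 for CAB3, -0.21 to 0.03 for LHB1B1 and -0.11 to 0.06 for CAB1. For shares of the LHCB1 sum it gave 14.4 to 15.4 points for CAB1, -11.6 to -11.1 for CAB2, -5.11 to -4.17 for LHB1B2, 0.940 to 1.32 for LHB1B1 and -0.0339 to 0.433 for CAB3. The LHCB1 share of the listed TPM differed by -0.618 points (-0.706 to -0.468 when 1 library was left out), by -1.71 without the most abundant gene model, and by -0.165 without the 10 most abundant genes, which include CAB1, LHB1B2 and CAB2, so that only 2 copies were summed. The share of unique stretches at 50 nt was 89.35% for CAB3, 79.53% for CAB2, 82.98% for CAB1, 82.73% for LHB1B2 and 86.3% for LHB1B1.

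Over all genes, 347 were called. The count was 126 without the scaling, where 19.8% were higher against 45.2%, and 384 when rescaled without the 10 most abundant genes, where 59.9% were higher. It was 1366 on the scale that sums to 1000000, 1081 at a mean TPM of 1, 2051 with no limit (each with more genes tested) and 262 to 307 with 1 library left out. Of 15 antenna and pathway genes 11 were called, the LHCB2 genes among them, beside 44.0% of all 789 genes. On the full-sum scale it was 18 of 25, beside 1366 of 3774 genes. Those 25 included 3 regulators of LHCB genes, 2 of them called. With 1 library left out, 9 to 11 of 15 were called. Same-numbered libraries did not deviate together (correlations 0.15, -0.08 and -0.21), and with the replicate block 297 genes were called, with LHCA3 and LTD no longer among them. Among other named genes, LHCB5, LHCB6, PSBS and RBCS1A lost their calls with no limit on TPM, RBCS1A also without LL36 replicate 1, and LHCA1 gained one without LL24 replicate 3.

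TPM carries no depth, and 3 libraries a group limit the precision.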
